A study of Mus musculus with 12 samples.

Results

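The IL-17 and IL-23 axis was followed in mouse back skin through 10 genes taken by symbol from the deposited expression table of 18505 genes: the cytokines Il17a, Il17f, Il17c and Il22, the IL-23 subunits Il23a and Il12b, and the receptor chains Il23r, Il17ra, Il17rc and Il17re. All 10 were listed, and 7 passed the filter on low values among the 15288 genes that did so. RNA-seq was performed on whole back skin of BALB/c WT mice taken on day 10, with 4 control samples, 4 IMQ + NS samples and 4 IMQ + BZLF samples. Control skin received petroleum jelly, the IMQ + NS group received imiquimod (IMQ) cream, a Toll-like receptor 7 agonist that brings on psoriasis-like lesions, and then a saline cover, and the IMQ + BZLF group received the same cream and then a cover of Banzhilian formula (BZLF), a botanical preparation. By the study's methods these were young male mice treated once daily. The labels give neither the BZLF dose of the sequenced samples nor the animal behind each sample, so p-values here measure the spread between these samples. By the methods IMQ + NS differed from control in both the cream and the saline cover, and no group received BZLF without IMQ.

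IL-23 is a heterodimer of the p19 subunit, encoded by Il23a, and the p40 subunit, encoded by Il12b, which IL-12 also carries. It is made by dendritic cells and macrophages and acts through IL-23R and IL-12Rβ1 on T helper 17 cells, γδ T cells and innate lymphoid cells, which then release IL-17A, IL-17F and IL-22. IL-17A and IL-17F bind a receptor of IL-17RA and IL-17RC on keratinocytes, IL-17C is made by epithelial cells and binds IL-17RA with IL-17RE, and all of these signal through the adaptor Act1, encoded by Traf3ip2. The response of keratinocytes includes chemokines that draw neutrophils and antimicrobial proteins, and this axis is the target of several psoriasis drugs. Because the samples were bulk skin, fewer cells of a type and less RNA per cell cannot be told apart.

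Il17a and Il17f were the members called in 2 of the 3 comparisons, and they lie next to each other on chromosome 1 with 42649 bases between them (GRCm38). The 250 bases before an annotated start of each gene are shown because both genes were called in these 2 comparisons. They were read from RefSeq promoters (GRCm38.p6), which had an entry for 8 of the 10 members. The Il17a stretch is chr1:20730655-20730904 on the plus strand and the Il17f stretch is chr1:20784271-20784520 on the minus strand, both given 5′ to 3′. The Il17f gene is annotated from 20777146 to 20785274, so its stretch lies inside the gene, before an internal start. Positions in Il17f are counted from that internal start. Capitals mark TGANTCA, a loose pattern for AP-1 sites that allows any middle base, the nuclear receptor half-site AGGTCA, on either strand, and TATAAA.
Il17a: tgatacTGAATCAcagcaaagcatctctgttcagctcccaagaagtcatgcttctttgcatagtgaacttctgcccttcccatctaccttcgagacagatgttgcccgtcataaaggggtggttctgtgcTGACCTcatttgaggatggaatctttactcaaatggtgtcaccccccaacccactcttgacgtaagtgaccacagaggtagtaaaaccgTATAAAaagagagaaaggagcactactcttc
Il17f: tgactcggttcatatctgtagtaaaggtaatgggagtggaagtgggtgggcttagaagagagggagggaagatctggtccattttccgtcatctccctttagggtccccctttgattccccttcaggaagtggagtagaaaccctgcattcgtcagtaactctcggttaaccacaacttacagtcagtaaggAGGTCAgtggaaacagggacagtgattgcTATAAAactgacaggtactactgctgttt
In Il17a the loose pattern TGANTCA was matched by TGAATCA at bases -244 to -238. AGGTCA lay on the minus strand at -120 to -115 and TATAAA at -31 to -26. In Il17f AGGTCA lay on the plus strand at -58 to -53 and TATAAA at -29 to -24. Among all 27025 promoters of this length, 13.8% held AGGTCA, 13.0% held TATAAA and 6.87% held TGANTCA on at least one strand, and the marked letters do not overlap. The NF-kappa B consensus (7.01% of promoters) and the STAT motif TTCNNNGAA (7.18%) were found in neither stretch. These matches describe letters only.

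Values are FPKM, fragment counts scaled to transcript length and to the sequencing depth of the sample. The whole counts behind them could be recovered, and library totals ran from 38258231 to 40967094. A gene was called at an adjusted p under 0.05 (limma on log2(FPKM + 0.1), Benjamini-Hochberg over all 15288 genes) together with a log2 fold change over 1 in size, and "rose" and "fell" are used only for calls. The first principal component, with 76.4% of the variance, placed the 8 IMQ samples between 43.4 and 62.3 and 3 controls between -116 and -122, while control replicate 2 stood apart at -63.2. The control group's summed skeletal muscle markers were 3632 FPKM in replicate 2 and 8152 to 8850 FPKM in the others. Keratinocyte and fibroblast markers were detected in every sample.

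Il17a encodes IL-17A, the main effector cytokine of the axis. Its FPKM was 0 in all 4 control samples. It was 0.573, 0.402, 1.08 and 0.809 FPKM in IMQ + NS replicates 1 to 4, from 27, 18, 51 and 38 counts. In all 4 IMQ + BZLF samples it was again 0. The IMQ + NS samples therefore shared no value with either other group, and these 8 other libraries held no count at all; 0 counts in 1 library allow up to 0.0625 to 0.0667 FPKM. Il17a rose in IMQ + NS against control by a log2 fold change of 2.96 (SE 0.27, adjusted p = 5.12e-05, limma) and fell in IMQ + BZLF against IMQ + NS by 2.96 (SE 0.27, adjusted p = 0.00108, limma). The log scale understates such a change: against a floor of 3 counts over the group, the 134 counts of IMQ + NS were at least 44.4-fold higher than in control and at least 44.4-fold higher than in IMQ + BZLF. Between IMQ + BZLF and control no fold can be given.

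Il17f encodes IL-17F, the closest relative of IL-17A. Control samples had 0, 0, 0.0131 and 0.0265 FPKM, which were 0, 0, 1 and 2 counts. IMQ + NS samples had 0.575, 0.416, 0.817 and 1.32 FPKM, from 45, 31, 64 and 103 counts. IMQ + BZLF samples had 0, 0, 0.0260 and 0.0125 FPKM, from 0, 0, 2 and 1 counts. The lowest of the 4 IMQ + NS samples exceeded the highest of the other 8, with replicate 4 highest, whereas for Il17a replicate 3 was highest. Il17f rose in IMQ + NS against control by 2.91 on the log2 scale (SE 0.31, adjusted p = 1.10e-04, limma) and fell in IMQ + BZLF against IMQ + NS by 2.91 (SE 0.30, adjusted p = 0.00157, limma). The depth-corrected ratio of counts, IMQ + NS to control, was 80.5 with a 95% exact binomial interval of 27.2 to 393, which covers counting error only. Against control, IMQ + BZLF gave a log2 fold change of -0.00 (SE 0.22, adjusted p = 0.993, limma).

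In IMQ + NS samples the FPKM of Il17a divided by that of Il17f was 0.998, 0.965, 1.32 and 0.613, so that neither ligand was the higher in every sample. Over the 12 samples the gene whose centred log2 profile was closest to that of Il17a, of all those tested, was Il17f, with a root mean square difference of 0.24 (log2). It was followed by Trem1, a receptor of neutrophils and monocytes, at 0.33, and Mmp8, neutrophil collagenase, at 0.36. For Il17f the next 2 after Il17a were Trem1 at 0.37 and Tmprss11g, a serine protease gene, at 0.43. Il17a and Il17f passed the filter on low values, a mean of 0.1 FPKM over the 12 samples, only through the IMQ + NS group, so a difference was built into their passing. With no filter the adjusted p of Il17a was 1.24e-04 in IMQ + NS against control and 0.00564 in IMQ + BZLF against IMQ + NS (limma). That of Il17f was 2.74e-04 and 0.0101 in the same order (limma).

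Il22 encodes IL-22, which acts on keratinocytes and other epithelial cells. It had 0, 0, 0.0730 and 0 FPKM in control samples, 4 counts in all. In IMQ + NS it had 0.195, 0.336, 0.0177 and 0.320 FPKM, from 11, 18, 1 and 18 counts. In IMQ + BZLF it had 0, 0, 0.0723 and 0 FPKM, again 4 counts. Replicates 1, 2 and 4 of IMQ + NS were above every sample of the other groups, and replicate 3, which was highest for Il17a, was not, so the groups overlapped (difference 1.30 against control and -1.30 for IMQ + BZLF against IMQ + NS in mean log2, exact permutation test, two-sided, p = 0.0571 each). Il22 did not pass the filter; with no filter it was called higher in IMQ + NS against control (adjusted p = 0.0419, limma) and not lower in IMQ + BZLF against IMQ + NS (adjusted p = 0.154).

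Il17c, the epithelial ligand, was lower still in depth. Control samples had 0.0703, 0, 0 and 0.0181 FPKM. IMQ + NS samples had 0, 0.404, 0.210 and 0.0875 FPKM, from 0, 22, 12 and 5 counts, and IMQ + BZLF samples had 0, 0, 0.0356 and 0.0171 FPKM. IMQ + NS replicates 2, 3 and 4 exceeded all other samples and replicate 1 held no count, so the groups overlapped. The differences in mean log2 were 0.97 against control (exact permutation test, two-sided, p = 0.171) and -1.05 for IMQ + BZLF against IMQ + NS (p = 0.143, same exact test), and neither held up.

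**Figure D1:**
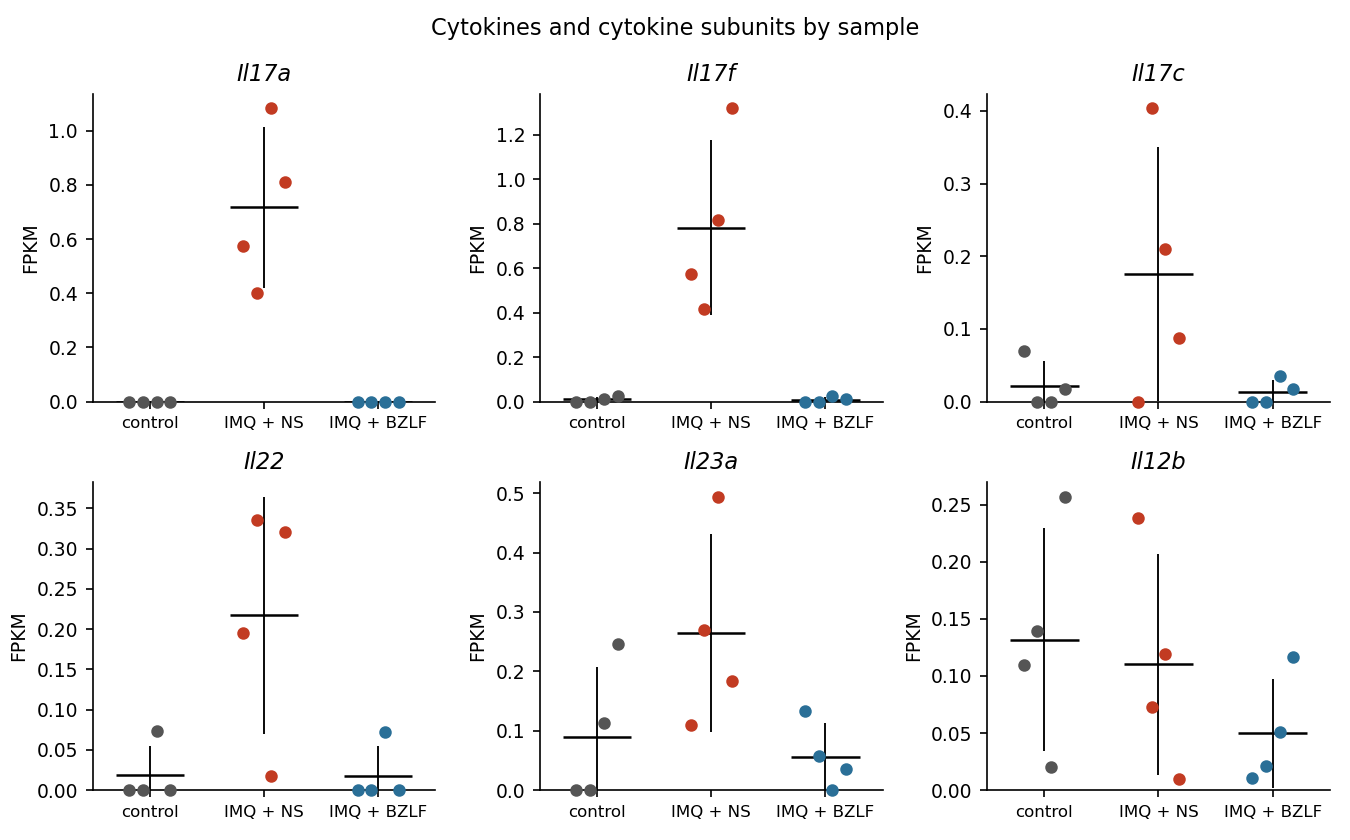
FPKM of 6 cytokine and subunit genes in the 12 samples (points), with the group mean (horizontal line) and SD (vertical line, n = 4); each panel has its own linear axis from 0. Il17a and Il17f are at or near 0 in control and IMQ + BZLF and between 0.402 and 1.32 FPKM in IMQ + NS, whereas the groups overlap for the other 4 genes.

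Neither subunit of IL-23 was called in any comparison. Il23a, p19, had 0, 0, 0.113 and 0.246 FPKM in control, from 0, 0, 6 and 13 counts. It had 0.110, 0.269, 0.494 and 0.183 FPKM in IMQ + NS and 0.133, 0.0575, 0 and 0.0359 FPKM in IMQ + BZLF. IMQ + NS overlapped with both groups: its replicate 1 lay below control replicates 3 and 4 and below IMQ + BZLF replicate 1. From control to IMQ + NS the log2 fold change was 1.04 (SE 0.48, adjusted p = 0.0945, limma) and from IMQ + NS to IMQ + BZLF it was -1.18 (SE 0.37, adjusted p = 0.0988, limma), both past the fold limit and neither past the adjusted p. Il23a too averaged under 0.1 FPKM in both other groups and passed the filter only through IMQ + NS, so these fits are of a gene that was higher there by selection. Without control replicate 4, the control with the most counts, the first was 1.39 (adjusted p = 0.0311, limma) and a call. IMQ + BZLF differed from control by -0.14 (adjusted p = 0.811, limma), and the sign turned under some other settings. The 3 genes with the profile closest to that of Il23a were Ptgs2, which encodes cyclooxygenase 2 (root mean square difference 0.41), Hbegf, an epidermal growth factor receptor ligand (0.42), and Rgs20 (0.47).

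Il12b, p40, had 0.110, 0.140, 0.0204 and 0.257 FPKM in control samples. It had 0.238, 0.0730, 0.119 and 0.00995 FPKM in IMQ + NS and 0.0103, 0.0208, 0.0506 and 0.117 FPKM in IMQ + BZLF. The highest sample was 12.6, 23.9 and 11.4 times the lowest in the 3 groups, from 1 to 25 counts a sample, and the groups overlapped. No difference was detectable at this depth in IMQ + NS against control (-0.15 in mean log2, exact permutation test, two-sided, p = 0.686) or in IMQ + BZLF against IMQ + NS (-0.42, p = 0.314, same exact test). The within-sample difference, Il12b minus Il23a, changed by -1.19 on the log2 scale from control to IMQ + NS, within the spread of the samples (exact permutation test, two-sided, p = 0.171).

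Il23r encodes the receptor chain particular to IL-23. It had 0.191, 0.121, 0.0617 and 0.124 FPKM in control and 0.270, 0.452, 0.240 and 0.220 FPKM in IMQ + NS. In IMQ + BZLF it had 0.280, 0.188, 0.336 and 0.137 FPKM. All 4 IMQ + NS samples were above all 4 controls, while IMQ + BZLF overlapped with both. In IMQ + NS against control the log2 fold change was 0.81 (SE 0.26, adjusted p = 0.0249, limma), past the adjusted p and under the fold limit; leaving out 1 sample at a time moved the adjusted p between 0.0211 and 0.0655. The 116 counts in IMQ + NS against 49 in control gave a depth-corrected ratio of 2.35 (95% exact binomial interval 1.67 to 3.36). From IMQ + NS to IMQ + BZLF it was -0.24 (SE 0.26, adjusted p = 0.624, limma), so no fall of Il23r was found beside that of Il17a and Il17f; whether the 3 genes differed in their change was not tested. IMQ + BZLF differed from control by 0.57 (SE 0.27, adjusted p = 0.104, limma). Il12rb1, the other receptor chain of IL-23, averaged 0.330, 0.737 and 0.415 FPKM in control, IMQ + NS and IMQ + BZLF.

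The IL-17 receptor chains were far more abundant per length than their ligands. Il17ra encodes the chain shared by all receptors of the family. It had 5.68, 6.05, 6.36 and 5.66 FPKM in control and 7.95, 8.12, 9.83 and 10.4 FPKM in IMQ + NS. In IMQ + BZLF it had 6.35, 6.56, 5.97 and 7.31 FPKM. IMQ + NS lay above both other groups without overlap. From control to IMQ + NS the log2 fold change was 0.60 (SE 0.11, adjusted p = 0.00211, limma) and from IMQ + NS to IMQ + BZLF it was -0.46 (SE 0.11, adjusted p = 0.0365, limma), both under the fold limit. The second adjusted p lay between 0.0313 and 0.108 when 1 sample was left out and was under 0.05 in 3 of those 8 fits. IMQ + BZLF differed from control by 0.14 (adjusted p = 0.256, limma).

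Il17rc encodes the partner of IL-17RA for IL-17A and IL-17F and was the most abundant member. It had 27.0, 22.9, 30.4 and 32.6 FPKM in control and 30.6, 30.4, 34.0 and 30.6 FPKM in IMQ + NS. In IMQ + BZLF it had 20.98, 22.1, 21.9 and 24.0 FPKM. IMQ + NS overlapped with control, and all 4 IMQ + BZLF samples were below all 4 IMQ + NS samples. From control to IMQ + NS the log2 fold change was 0.17 (SE 0.11, adjusted p = 0.234, limma) and from IMQ + NS to IMQ + BZLF it was -0.50 (SE 0.06, adjusted p = 0.00354, limma), under the fold limit; the latter stayed under 0.05 without each sample in turn, at 0.00455 to 0.0171. IMQ + BZLF differed from control by -0.33 (SE 0.11, adjusted p = 0.0381, limma), but the groups overlapped through control replicate 2, and leaving out 1 sample moved this adjusted p between 0.00207 (without control replicate 2) and 0.101 (without control replicate 4).

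Il17re, the partner for IL-17C, lies next to Il17rc on chromosome 6 with 696 bases between them. It had 2.16, 3.33, 2.55 and 3.03 FPKM in control and 3.74, 3.04, 3.55 and 3.57 FPKM in IMQ + NS. In IMQ + BZLF it had 3.05, 3.08, 3.10 and 3.22 FPKM. The groups overlapped, and the IMQ + BZLF samples were the closest together, with an SD of 0.0760 FPKM. From control to IMQ + NS the log2 fold change was 0.33 (adjusted p = 0.0881, limma), or 0.42 (adjusted p = 0.0205) without control replicate 2. The change from IMQ + NS to IMQ + BZLF was -0.15 (adjusted p = 0.326, limma), and IMQ + BZLF differed from control by 0.18 (adjusted p = 0.312, limma). The genes with the closest profiles were Rce1, a CAAX protease (root mean square difference 0.0764), Hacd3, a fatty acid elongation enzyme (0.0793), and Zbtb18, a zinc finger repressor (0.0872).

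**Figure D2:**
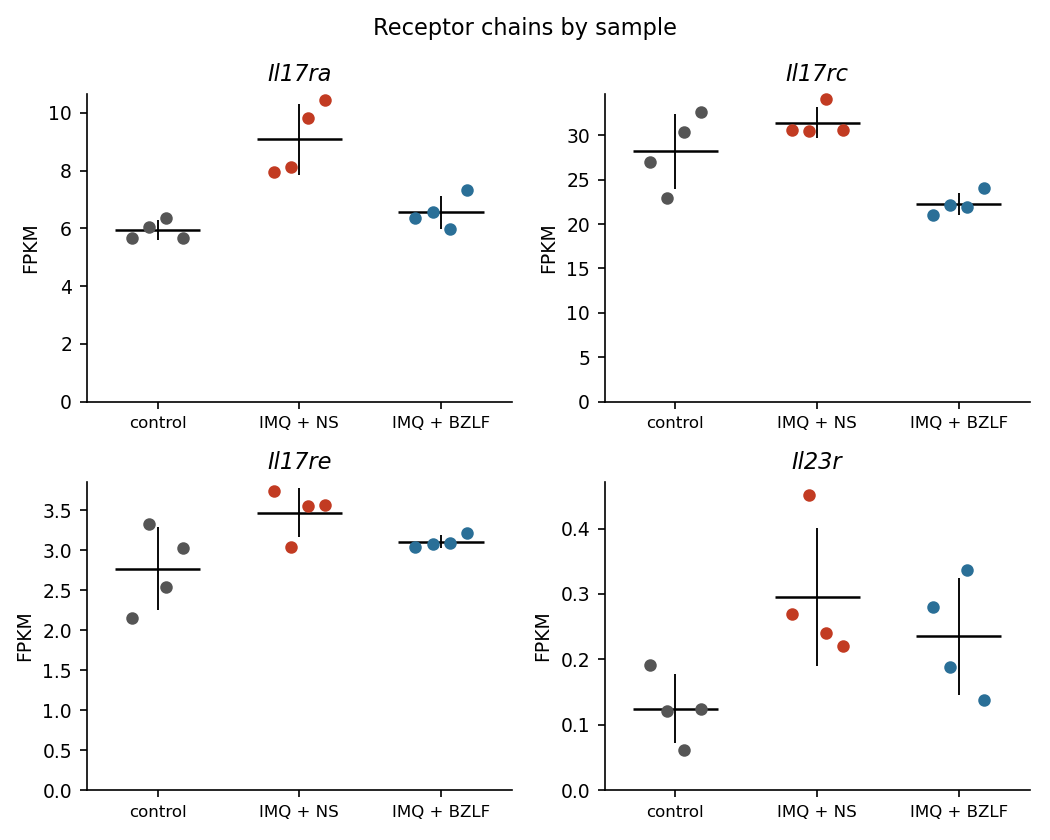
FPKM of 4 receptor chains in the 12 samples (points), with the group mean (horizontal line) and SD (vertical line, n = 4), on linear axes from 0. Il17ra is highest in all 4 IMQ + NS samples, Il17rc is lowest in IMQ + BZLF apart from control replicate 2 at 22.9 FPKM, and Il23r in IMQ + BZLF overlaps both other groups.

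In every sample the order of the receptor chains per length was Il17rc, then Il17ra, then Il17re, with no overlap between neighbours within a group. Il17rc was 3.79 to 5.75 times Il17ra in control samples, 2.93 to 3.85 times in IMQ + NS and 3.29 to 3.68 times in IMQ + BZLF. The difference of log2 values, Il17ra minus Il17rc, was larger in IMQ + BZLF than in control by 0.47, without overlap (exact permutation test, two-sided, p = 0.0286, the smallest these groups allow; 0.214 adjusted over 15 within-sample comparisons). The difference Il17re minus Il17rc was larger in IMQ + BZLF than in IMQ + NS by 0.34, also without overlap (exact permutation test, p = 0.0286; adjusted 0.214). None of the 15 passed the adjustment, and a single p of 0.0286 among 15 could not.

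**Figure D3:**
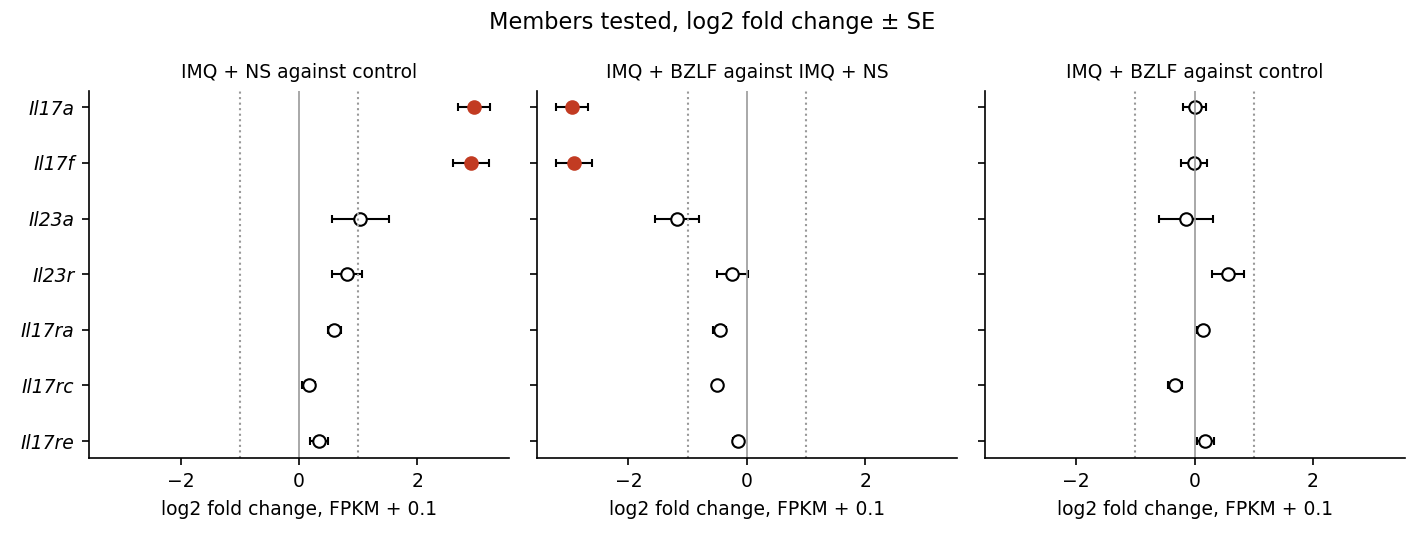
Log2 fold change (of FPKM + 0.1) with SE for the 7 members tested in each comparison; filled points are calls and dotted lines mark the fold limit of 1. Il17a and Il17f are at 2.96 and 2.91 in IMQ + NS against control, at -2.96 and -2.91 in IMQ + BZLF against IMQ + NS and at 0 in IMQ + BZLF against control, and the receptor chains lie inside the limit.

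Over the members, IMQ + NS against control gave 2 calls higher and 0 lower of 7 tested, where 11.4% and 11.0% of all genes were called higher and lower. At an adjusted p under 0.05 and any fold 4 members were higher and 0 lower, where 29.0% and 27.1% of all genes were, and 4 were higher and 0 lower without overlap, where 23.7% and 25.7% were. These 4 were Il17a, Il17f, Il23r and Il17ra. In IMQ + BZLF against IMQ + NS, 0 members were called higher and 2 lower, where the background was 0.321% and 2.2%. In this comparison 0 members were higher and 4 lower at an adjusted p under 0.05 and any fold (background 1.28% and 5.17%), and 0 were higher and 4 lower without overlap (4.24% and 10.9%). These 4 were Il17a, Il17f, Il17ra and Il17rc. Because Il17a, Il17f and Il23a passed the filter only through IMQ + NS, the counts in both comparisons describe the members and are not set against the background as support. In IMQ + BZLF against control, 0 members were called (background 9.65% higher and 10.1% lower), 0 were higher and 1 lower at an adjusted p under 0.05 and any fold (23.8% and 29.2%), and 0 had groups without overlap (19.4% higher and 28.1% lower). That member was Il17rc, which was also the 1 member with an unadjusted p under 0.05 there, and limma voom on the recovered counts called 0 as well. The 30 exact permutation tests over members and comparisons had a lowest adjusted p of 0.107.

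Of the IL-17 response genes of keratinocytes, a list of 25 genes, 24 were present and 21 were tested. Some passed the filter only through IMQ + NS, so their differences were built in. Examples are Cxcl3 (0.00614, 2.31 and 0 FPKM in control, IMQ + NS and IMQ + BZLF) and Cxcl5 (0.0538, 3.95 and 0.0533 FPKM). The counts below therefore describe the list, with the share of all genes given for scale only. In IMQ + NS against control 17 rose and 1 fell (11.4% and 11.0% of all genes), with a median log2 fold change of 3.99 against 0.05 over all genes. The beta-defensin gene Defb3 rose from 0.315 to 191 FPKM, and S100a8 and S100a9, which encode the subunits of calprotectin, from 14.7 to 3010 and from 15.6 to 2909 FPKM. The 1 gene that fell was the stromelysin gene Mmp3. From IMQ + NS to IMQ + BZLF none rose and 18 fell (0.321% and 2.2% of all genes), with a median of -3.39 against -0.02. Defb3 fell to 0.338 FPKM, S100a8 to 45.8 FPKM and S100a9 to 20.6 FPKM. Relative to control, 5 were higher and 5 lower in IMQ + BZLF (9.65% and 10.1% of all genes), with a median of 0.02.

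Not every response gene followed Il17a back to the control level. S100a7a, the psoriasin gene, had 0.767 FPKM in control, 23.01 FPKM in IMQ + NS and 28.6 FPKM in IMQ + BZLF, and was 5.74 higher on the log2 scale in IMQ + BZLF than in control (SE 0.66). The acute phase gene Saa3 was higher there by 2.61 (SE 0.43), at 27.7 FPKM against 4.65 FPKM. The defensin gene Defb4, listed at 0 in all control samples, had 0.562 to 0.885 FPKM in IMQ + BZLF and 4.22 to 16.8 FPKM in IMQ + NS. Others were below control: the 5 genes called lower in IMQ + BZLF than in control were Mmp9, Cxcl2, Mmp3, Il1b and Cxcl1. Mmp9 averaged 5.44, 6.28 and 1.13 FPKM in control, IMQ + NS and IMQ + BZLF, and Il1b 5.67, 28.5 and 2.07 FPKM.

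**Figure D4:**
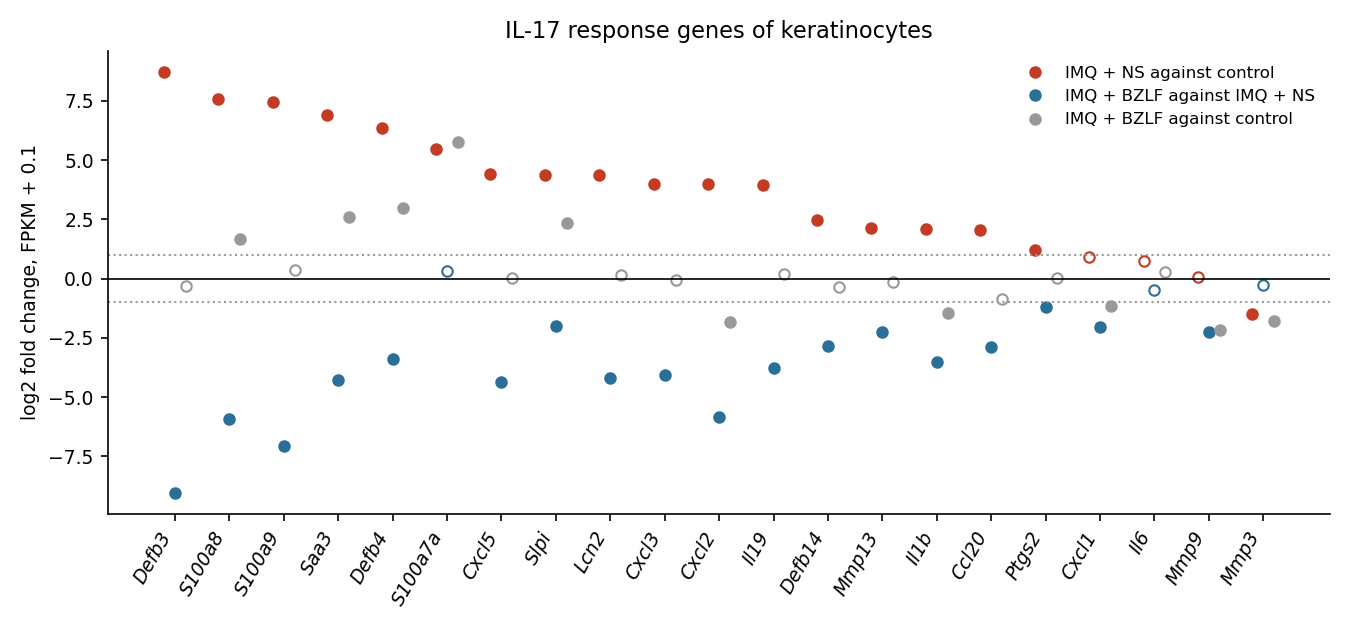
Log2 fold change (of FPKM + 0.1) of the 21 tested IL-17 response genes of keratinocytes in the 3 comparisons; filled points are calls, open points are not, and dotted lines mark the fold limit of 1. In IMQ + NS against control 17 genes are called higher, in IMQ + BZLF against IMQ + NS 18 are called lower, and in IMQ + BZLF against control 5 are called in each direction.

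Of 21 genes that transmit the IL-17 receptor signal, 1 rose and 1 fell in IMQ + NS against control, 2 fell in IMQ + BZLF against IMQ + NS and 1 was lower in IMQ + BZLF than in control. For this list and all lists below, 11.4% and 11.0% of all genes were called higher and lower in IMQ + NS against control. The shares were 0.321% and 2.2% in IMQ + BZLF against IMQ + NS, and 9.65% and 10.1% in IMQ + BZLF against control. Counts at an unadjusted p under 0.05 have no such share here, so they only describe the lists. Zc3h12a, which encodes the RNase Regnase-1 that limits IL-17 signalling, had 4.52 to 7.39 FPKM in control, 18.7 to 26.5 FPKM in IMQ + NS and 5.94 to 6.77 FPKM in IMQ + BZLF. It rose by 1.97 (SE 0.17) and fell by 1.81 (SE 0.10) on the log2 scale. Nfkbiz, which encodes the IκBζ co-activator induced by IL-17A, averaged 6.59, 12.9 and 4.40 FPKM in control, IMQ + NS and IMQ + BZLF and fell by 1.53 (SE 0.15) in IMQ + BZLF against IMQ + NS. Cebpd, a C/EBP factor gene, fell from 47.5 to 19.2 FPKM in IMQ + NS and was 16.1 FPKM in IMQ + BZLF. Traf3ip2, the Act1 gene, averaged 7.48, 9.18 and 7.48 FPKM in the 3 groups.

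Among the 5 other genes of the IL-17 family 1 rose and 1 fell in IMQ + NS against control, 0 were called in IMQ + BZLF against IMQ + NS by limma or limma voom (0 at an unadjusted p under 0.05) and 1 was higher in IMQ + BZLF than in control. The receptor genes Il17rd and Il17rb averaged 2.14, 2.12 and 2.15 FPKM and 0.674, 0.528 and 0.437 FPKM in control, IMQ + NS and IMQ + BZLF. Of 9 genes for IL-12 family subunits, receptors, kinases and STATs 2 fell in IMQ + NS against control, 1 fell in IMQ + BZLF against IMQ + NS and 2 were lower in IMQ + BZLF than in control. The gene lower in IMQ + BZLF than in IMQ + NS was Ebi3, a subunit of IL-27 and IL-35, at 3.70 against 7.72 FPKM. Of 12 genes of the IL-22 receptor and response 2 fell in IMQ + NS, 0 were called in IMQ + BZLF against IMQ + NS by limma or limma voom (3 at an unadjusted p under 0.05), and 2 were lower in IMQ + BZLF than in control. Il20ra, a receptor chain for related cytokines, fell from 2.78 to 0.347 FPKM in IMQ + NS and was 0.441 FPKM in IMQ + BZLF. The IL-22 receptor chains Il22ra1 and Il10rb averaged 4.45, 6.01 and 5.03 FPKM and 18.6, 17.8 and 15.6 FPKM.

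Genes of the cells that make IL-17 showed a mixed picture. Of 16 type 17 lymphocyte genes tested 2 rose and 2 fell in IMQ + NS against control, 0 were called in IMQ + BZLF against IMQ + NS, and 1 was higher and 3 lower in IMQ + BZLF than in control. Between IMQ + BZLF and IMQ + NS their median log2 fold change was -0.35, 7 of the 16 had an unadjusted p under 0.05 in limma, and limma voom called 0. Their summed level was 98.8 to 108 FPKM in control, 101 to 111 FPKM in IMQ + NS and 95.4 to 106 FPKM in IMQ + BZLF. Maf alone averaged 35.6, 49.8 and 54.2 FPKM in control, IMQ + NS and IMQ + BZLF, the largest part of this sum. The sum therefore does not show how the other genes moved. Cd163l1, a scavenger receptor gene of IL-17-producing γδ T cells, rose from 0.475 to 3.74 FPKM in IMQ + NS and had 0.532 to 1.97 FPKM in IMQ + BZLF, below all IMQ + NS samples (log2 fold change -1.47, adjusted p = 0.0724, limma). Irf4, of the same list, went the other way: it fell from 8.12 to 2.55 FPKM in IMQ + NS and was 2.57 FPKM in IMQ + BZLF. Zbtb16 was called lower in IMQ + BZLF than in control, at 1.85 against 4.07 FPKM.

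Of 12 T cell markers tested 2 rose in IMQ + NS against control, 1 fell in IMQ + BZLF against IMQ + NS and 3 were lower in IMQ + BZLF than in control. The sum of the 13 markers present was 18.6 to 25.4 FPKM in control, 15.9 to 30.4 FPKM in IMQ + NS and 7.997 to 16.9 FPKM in IMQ + BZLF, where the only marker at 0 in any sample was Cd8a, in 1 sample. Cd3e, a chain of the T cell receptor complex, averaged 2.44, 1.47 and 0.967 FPKM in control, IMQ + NS and IMQ + BZLF. The 2 markers that rose in IMQ + NS were Icos (0.477, 1.59 and 0.398 FPKM) and Cd5 (0.382, 1.12 and 0.548 FPKM). Icos was also the 1 that fell in IMQ + BZLF against IMQ + NS. The lowest T cell sum was in IMQ + BZLF replicate 1. The part of T cell RNA in the fall of Il17a was not tested.

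Most neutrophil markers moved in the same directions as Il17a. Of 14 tested, 12 rose and 1 fell in IMQ + NS against control (11.4% and 11.0% of all genes). In IMQ + BZLF against IMQ + NS 1 rose and 13 fell (0.321% and 2.2%). In IMQ + BZLF 1 was higher and 2 lower than in control (9.65% and 10.1%). Some, such as Trem1 (0.0106, 0.781 and 0.0213 FPKM in control, IMQ + NS and IMQ + BZLF), passed the filter only through IMQ + NS. Their differences were built in, so these counts only describe the list. Mpo, the myeloperoxidase gene, went the other way: it averaged 6.97, 1.02 and 2.13 FPKM in control, IMQ + NS and IMQ + BZLF, and was the 1 marker that fell in IMQ + NS (log2 fold change -2.66, SE 0.20) and the 1 that rose, just past the fold limit, in IMQ + BZLF against IMQ + NS. The latter log2 fold change of Mpo was under the limit, and no call, when replicate 2, 3 or 4 of IMQ + NS was left out (0.98, 0.95 and 0.93) or replicate 2 of IMQ + BZLF (0.90). This list shares S100a8 and S100a9 with the response genes above, and they made up most of its sum in IMQ + NS. The sums were 51.6 to 75.1, 3163 to 9947 and 72.9 to 98.1 FPKM in control, IMQ + NS and IMQ + BZLF. Without these genes they were 24.4 to 33.4, 57.7 to 116 and 13.1 to 20.5 FPKM. Ly6g, which defines mouse neutrophils, was at 0 in 2 control samples and 1 IMQ + BZLF sample. Of 12 keratinocyte markers 9 rose and 1 fell in IMQ + NS, 1 rose and 4 fell in IMQ + BZLF against IMQ + NS, and 6 were higher and 1 lower in IMQ + BZLF than in control. Krt16, a keratin of hyperproliferative epidermis, had 2.62, 530 and 21.5 FPKM on average. Krt77, another keratin gene, went the opposite way, with 598, 3.63 and 34.4 FPKM: it fell by 7.40 on the log2 scale in IMQ + NS (SE 0.41) and rose by 3.27 in IMQ + BZLF against IMQ + NS (SE 0.40).

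Of 14 myeloid and dendritic cell markers, the cells that make IL-23, 2 fell in IMQ + NS against control, 2 fell from IMQ + NS to IMQ + BZLF and 4 were lower in IMQ + BZLF than in control. Their sum was 1175 to 1748, 696 to 1106 and 463 to 780 FPKM. Lyz2 alone averaged 1091, 668 and 514 FPKM in control, IMQ + NS and IMQ + BZLF and made up most of this sum. Itgax, the CD11c gene, and Adgre1, the F4/80 gene, were the 2 that fell from IMQ + NS to IMQ + BZLF. They averaged 1.83, 2.80 and 0.994 FPKM and 28.6, 46.0 and 18.1 FPKM in the 3 groups. Cd209a, 1 of the 2 that fell in IMQ + NS, averaged 40.2, 3.63 and 6.22 FPKM. Markers of fibroblasts, muscle and fat were lower in both IMQ groups than in control: of 8 fibroblast, 7 skeletal muscle and 7 adipocyte markers 5, 7 and 5 fell in IMQ + NS, 5, 7 and 5 were lower in IMQ + BZLF than in control, and 0 were called by limma or by limma voom in IMQ + BZLF against IMQ + NS, where 3, 2 and 4 had an unadjusted p under 0.05. The part that this difference in tissue had in the members' values was not tested.

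**Figure D5:**
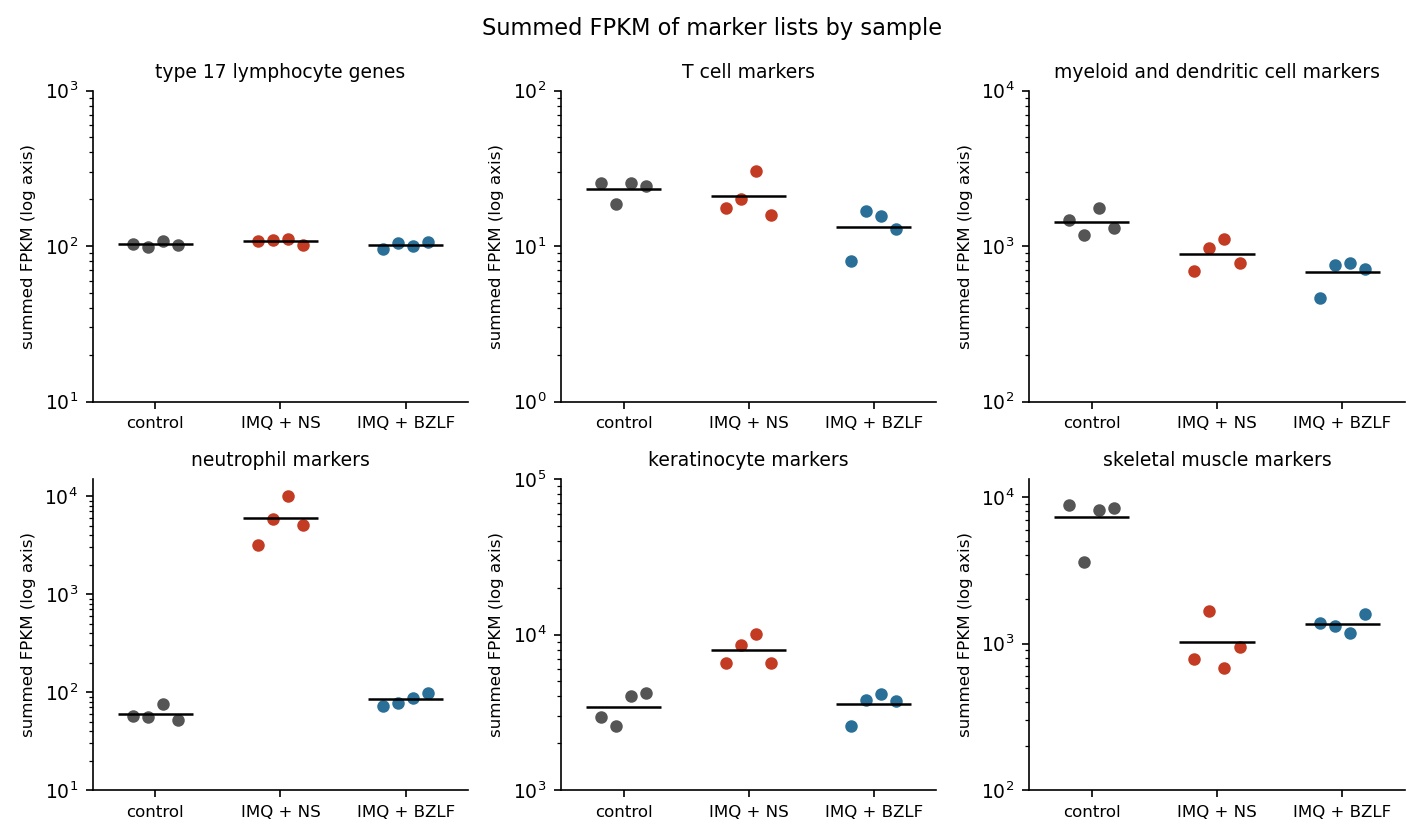
Summed FPKM of 6 marker lists in each sample (points) with the group mean (line), on logarithmic axes. Neutrophil markers sum to 3163 FPKM or more in IMQ + NS and to 98.1 FPKM or less in every other sample. Type 17 lymphocyte genes lie between 95.4 and 111 FPKM in all 12 samples, a sum to which Maf contributes most on average. T cell markers are lowest in IMQ + BZLF replicate 1.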

How the data were processed

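Total RNA of 12 back skin samples was sequenced, and the authors deposited 1 table of FPKM per gene and sample. The submitters' processing notes name fastp, HISAT2, HTSeq, R 3.2.0 and mm10, while the study's methods name Bowtie2 and eXpress and another extraction and library kit than the labels; which of these made the table is not given in the sources used here. FPKM divides by transcript length and by library depth. With an integer length per gene and 1 total per sample, whole counts (within 0.001) were recovered for 18465 of 18505 genes (99.8%), and these made up 99.8% to 99.9% of the library totals of 38258231 to 40967094; whether reads or read pairs were counted is not stated, and counting intervals cover counting error only.

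The 15288 genes whose FPKM averaged 0.1 or more in the 12 samples were tested on log2(FPKM + 0.1) with limma 3.58.1 in R 4.3.3, with a trend in the moderated variances, each pair of groups on its own, and Benjamini-Hochberg adjustment. The added constant shrinks the fold changes of low genes. On simulated data with 200 changed genes the script was tested before use. Single members and within-sample differences were compared by two-sided exact permutation tests over 4 against 4 samples, whose smallest p is 0.0286. Intervals are 95%, and the floor for 0 is 3 counts. Alternatives changed the constant, filter, scaling, samples fitted, variance model, call rule and replicate block, and left out each sample; limma voom on the recovered counts was chosen after seeing the data. The members and gene lists were chosen with earlier results of these data known. All members were named, and from other lists up to 3 called genes per comparison by size of change (FPKM averaging 1 or more), plus receptor partners and Traf3ip2; 1 named gene is not reported here; Mmp3, Cd8a, Ly6g and, in comparisons with IMQ + NS, Mpo were named for counts of 2 or fewer after their values were seen. Likeness is the root mean square difference of centred log2 profiles over 12 samples. Il36g, Trdc and Scart2 had no row under that symbol in the table used here. Proteins were not analysed here.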

Additional observations from a re-analysis of the deposited data

Results flagged for a closer look

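Of 28 groups of 4 member values with any spread, 3 held a sample whose gap to the nearest other sample, divided by the group's range, exceeded Dixon's critical value for 4 samples. That value is set to flag about 1 in 20 groups of continuous, normal values. A group with 3 samples at 0 and 1 above 0 always exceeds it, as in both Il22 flags below. The number flagged is therefore not compared with that rate. Il22 in control replicate 3 was 0.0730 FPKM, from 4 counts, where the other 3 controls had none. Il22 in IMQ + BZLF replicate 3 was 0.0723 FPKM, also from 4 counts, where the other 3 had none. In IMQ + NS, replicate 3 was instead the lowest for Il22, with 1 count, at 0.0177 FPKM. Il17rc in IMQ + NS replicate 3 was 34.0 FPKM, with a gap of 0.942 of the range above the other 3 samples at 30.4 to 30.6 FPKM; without this sample the log2 fold change of Il17rc in IMQ + BZLF against IMQ + NS was -0.46 (adjusted p = 0.00808, limma).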

How the results depend on the processing

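The members called higher in IMQ + NS against control (2, Il17a and Il17f) and lower in IMQ + BZLF against IMQ + NS (2, the same genes) became 0 and 0 with a constant of 1, 0 and 0 with a filter at a mean FPKM of 1, which removes both genes, and 4 and 4 with no fold limit; in IMQ + BZLF against control 1 was lower with no fold limit. With the constant of 1 the log2 fold changes of Il17a were 0.76 and -0.76 and those of Il17f 0.79 and -0.79, with adjusted p-values under 0.05. Leaving out each sample in turn gave 2 to 3 and 2 to 2 calls. Among other members, Il23r in IMQ + NS against control was called with a constant of 0.01 (1.22) and with voom on recovered counts (1.25), Il23a without control replicate 4 (1.39), and Il23a in IMQ + BZLF against IMQ + NS with an unadjusted p. In IMQ + BZLF against control the sign turned for Il17f with voom (0.015) and when a sample was left out (range -0.072 to 0.067), and for Il23a with a constant of 0.01 (0.12), with voom (0.16) and when a sample was left out (range -0.38 to 0.22); none of these values had an adjusted p under 0.05. With a constant of 0.01 the within-sample change of Il17a minus Il17f was 0.68 in IMQ + NS against control and -0.67 in IMQ + BZLF against IMQ + NS, from 0.05 and -0.05, and that of Il12b minus Il23a was -2.87 in IMQ + NS against control, from -1.19, since the constant sets the level of samples at 0. Over all genes the calls in IMQ + BZLF against IMQ + NS, 49 higher and 336 lower, were 195 and 791 with no fold limit and 17 and 188 with a constant of 1, and the 49 ranged from 19 to 78 when a sample was left out. In IMQ + NS against control the 1740 higher and 1678 lower were 4427 and 4142 with no fold limit, and 1023 were lower with a constant of 1. In IMQ + BZLF against control the 1475 and 1542 were 3640 and 4458, and 979 and 865.

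Samples carry replicate numbers 1 to 4 in each group, but no label ties a number to a shared animal or day. The correlation of same-numbered deviations ran from -0.15 to 0.26 over 12 pairs, 6 of them over 0.1, and 7 of 12 samples correlated best with their own number, a hint from the data and not the design. With the replicate block the members called stayed at 2 higher, 2 lower and 0. Rescaling to equal sums moved the median of all genes in IMQ + NS against control from 0.05 to -0.07 (-0.07 also with quantile normalization) and from -0.02 to -0.12 in IMQ + BZLF against control. Depth limits Il17c, Il22, Il23a and Il12b, with at most 57 counts in a group.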
